A study of Mus musculus with 6 samples.

Results

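Sertoli cells are the somatic nurse cells of the seminiferous tubule, and 10 of their marker genes were followed here through a ribosome footprint data set of mouse round spermatids, the haploid germ cells that later elongate into sperm. The markers were chosen by name (Clu, Ctsl, Amhr2, Aard, Sox9, Wt1, Cst12, Cldn11, Inha and Fshr) as rows of the deposited table of 22770 gene rows. Values of 6 of the 10 were read, those of Clu, Ctsl, Amhr2, Aard, Cst12 and Inha. Sox9, Wt1, Cldn11 and Fshr were not analysed here. Values are in FPKM, footprint fragments divided by transcript length and library size. The mean of each of the 6 reached the minimum of 1 FPKM, and so all entered the test, which covered 15578 rows.

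The series holds 3 libraries of the genotype labelled Eif5a SKO and 3 wild-type libraries, all from testis and labelled as round spermatids. The labels do not spell out SKO, and they give no Cre driver, strain or age. The table itself names the SKO columns cKO. The design text, written for an accessibility assay, speaks of cells sorted from 3 mice in each genotype. Nothing in the labels says that the footprint libraries came from separate mice, so a p-value here reflects only differences among these 6 libraries, which may be technical. EIF5A, the factor targeted in SKO, helps ribosomes through stretches of coding sequence that they translate poorly. Eif5a itself had 1.84, 1.93 and 2.99 FPKM in SKO libraries 1, 2 and 3, against 34.2, 48.8 and 61.9 FPKM in wild-type libraries 1, 2 and 3, so every library labelled SKO lay below every wild-type library for the targeted gene.

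Sertoli cells surround germ cells at every stage, feed them, seal the tubule with the blood-testis barrier and engulf dying germ cells and the residual bodies that spermatids shed. They answer to follicle-stimulating hormone through FSHR, and they secrete inhibin, which holds that hormone down, anti-Müllerian hormone, and carrier and chaperone proteins such as clusterin. Their identity rests on SOX9 and WT1. Since they are not germ cells, their genes serve in a spermatid preparation mainly as markers of another cell type. Clu and Ctsl are also made by many other cells, and Amhr2 and Inha also by Leydig cells, so these markers are not exclusive to Sertoli cells.

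Summed over the 6 genes, the Sertoli markers carried 66.9, 70.7 and 92.0 FPKM in SKO libraries 1, 2 and 3, against 15.0, 27.7 and 23.7 FPKM in wild-type libraries 1, 2 and 3. Every SKO library lay above every wild-type library, with means of 76.5 ± 13.5 FPKM in SKO and 22.1 ± 6.50 FPKM in wild type (SD, n = 3 each), a 3.46-fold difference. Clu and Ctsl made up 69.0% to 75.6% of that sum in SKO and 49.1% to 64.1% in wild type. No single marker passed the test over all rows with the deposited values (limma, Benjamini-Hochberg adjusted p under 0.05), a test that called 0.128% of rows in either direction and 0.109% as higher in SKO. Higher and lower are used below of group means, and of no gene as a called change unless its adjusted p is given as passing. In these bulk footprint libraries more cells of a type, more RNA per cell and more ribosomes per RNA cannot be told apart.

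**Figure D1:**
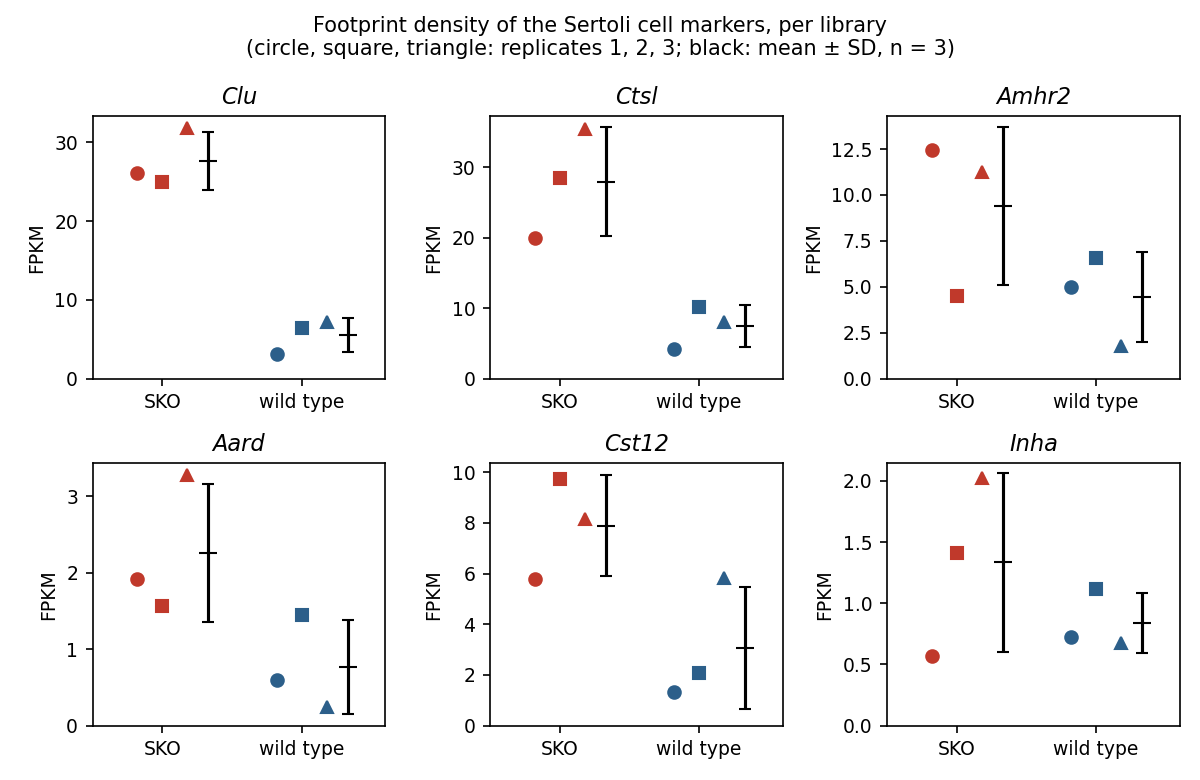
Footprint density in FPKM (linear axes that start at 0) of the 6 Sertoli markers in each library, SKO left and wild type right, with replicates 1, 2 and 3 as circle, square and triangle and the mean ± SD in black. The groups are apart for Clu, Ctsl and Aard and overlap for Amhr2, Cst12 and Inha.

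The means of Clu and Ctsl stood furthest apart between the genotypes among the 6 markers. Clu encodes clusterin, an extracellular chaperone and one of the main proteins that Sertoli cells secrete. It lies on chromosome 14 (gene ID 12759, GRCm38, 65968483 to 65981548). Clu had 26.2, 25.0 and 31.9 FPKM in SKO libraries 1, 2 and 3, against 3.14, 6.37 and 7.19 FPKM in wild-type libraries 1, 2 and 3. The SKO values lay close together and all were more than those of wild type, with means of 27.7 ± 3.69 FPKM in SKO and 5.57 ± 2.14 FPKM in wild type (SD, n = 3 each), 4.97-fold apart. Its log2 fold change, on the log2(FPKM + 1) scale of all fold changes here, was 2.18 (SE 0.38, limma adjusted p = 0.0853). Of all tested rows, 99.3% had a lower log2 fold change. The exact permutation test, two-sided, gave p = 0.1, the smallest that the 20 assignments of 3 against 3 libraries allow. Clu passed once the libraries were brought to a common scale by a trimmed mean of log ratios (TMM-type scaling): its scaled log2 fold change was 2.03 (SE 0.30, limma adjusted p = 0.0410), beside 0.764% of all rows called higher in SKO under that scaling. The TMM-scaled call was lost when any 1 of the 6 libraries was left out (limma adjusted p 0.0749 to 0.161).

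Ctsl encodes cathepsin L, a lysosomal cysteine protease that rat Sertoli cells are known to secrete in a stage-dependent way. The gene is on chromosome 13 (gene ID 13039, GRCm38, 64361890 to 64370772). Ctsl had 20.0, 28.5 and 35.4 FPKM in SKO libraries 1, 2 and 3, against 4.22, 10.1 and 7.97 FPKM in wild-type libraries 1, 2 and 3. All 3 SKO values exceeded the wild-type values, at 28.0 ± 7.71 FPKM in SKO and 7.44 ± 2.99 FPKM in wild type (SD, n = 3 each), 3.76-fold apart. The log2 fold change was 1.81 (SE 0.42, limma adjusted p = 0.175), and the scaled one 1.66 (limma adjusted p = 0.0585). The proportion of Clu to Ctsl varied among the libraries. The ratio of Clu to Ctsl in FPKM was 1.31, 0.876 and 0.901 in SKO libraries 1, 2 and 3, against 0.745, 0.629 and 0.901 in wild-type libraries 1, 2 and 3. These ratios overlap between the genotypes.

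Cst12 belongs to the family 2 cystatins, the protein family of secreted cysteine protease inhibitors. It lies on chromosome 2 (gene ID 69362, GRCm38, 148789365 to 148793432). Cst12 had 5.77, 9.74 and 8.16 FPKM in SKO libraries 1, 2 and 3, against 1.33, 2.07 and 5.82 FPKM in wild-type libraries 1, 2 and 3. Wild-type library 3 was above SKO library 1, so the groups overlapped by a narrow margin. The means were 7.89 ± 2.00 FPKM in SKO and 3.07 ± 2.41 FPKM in wild type (SD, n = 3 each), with a log2 fold change of 1.26 (SE 0.45, limma adjusted p = 0.344). The 250 bases before its RefSeq start (GRCm38.p6, chr2:148789115-148789364, plus strand) are shown because it is the only marker window that lies wholly outside the annotated span of its gene.

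Cst12 upstream window: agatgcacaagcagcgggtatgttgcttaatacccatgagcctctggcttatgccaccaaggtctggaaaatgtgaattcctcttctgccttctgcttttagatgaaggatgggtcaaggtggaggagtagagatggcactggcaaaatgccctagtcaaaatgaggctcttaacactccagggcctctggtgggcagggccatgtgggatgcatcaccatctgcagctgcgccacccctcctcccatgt

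The hormone genes of the list were less far apart. Amhr2 encodes the type II receptor that binds anti-Müllerian hormone, on chromosome 15 (gene ID 110542, GRCm38, 102445002 to 102454640). It had 12.5, 4.51 and 11.3 FPKM in SKO libraries 1, 2 and 3, against 4.97, 6.59 and 1.75 FPKM in wild-type libraries 1, 2 and 3. SKO library 2, the highest of all for Cst12, lay within the wild-type range here. The means were 9.40 ± 4.28 FPKM in SKO and 4.44 ± 2.46 FPKM in wild type (SD, n = 3 each), with a log2 fold change of 0.95 (SE 0.50, limma adjusted p = 0.525).

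Inha encodes the alpha subunit of inhibin, which pairs with a beta subunit to form the hormone. It lies on chromosome 1 (gene ID 16322, GRCm38, 75507077 to 75510366). Inha had 0.568, 1.41 and 2.03 FPKM in SKO libraries 1, 2 and 3, against 0.722, 1.12 and 0.676 FPKM in wild-type libraries 1, 2 and 3. The lowest of the 6 values was that of SKO library 1, and the groups overlapped. Its log2 fold change of 0.30 (SE 0.38, limma adjusted p = 0.820) was the smallest of the 6 markers, and 62.6% of all tested rows had a lower one.

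Of the 4 markers with an upstream window, only Amhr2 held a match to the motif searched for NR5A1. That factor is a nuclear receptor known to act on the Amhr2 promoter. The stretch around the match is shown with the motif AAGGTCA in capitals (GRCm38.p6, chr15:102445125-102445154, plus strand), and the match begins 231 bases before the RefSeq start.

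Amhr2 NR5A1 motif: caccttcttccAAGGTCAgtaggggtagag

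The windows of Amhr2, Ctsl, Cst12 and Inha came from a RefSeq promoter table of GRCm38.p6. The 250 bases before each start were searched on both strands. The SOX motifs searched were ACAAAG and, as a second form, ACAATG. The GATA motifs were AGATAA and, as a second form, TGATAA. The others were AAGGTCA for NR5A1, TGACG for CREB, the E-box CACGTG and the TATA box TATAAA. No match overlapped another. The Amhr2 window also held the second GATA form on the opposite strand. The Ctsl window held the E-box and, on the opposite strand, the second SOX form. The Cst12 and Inha windows held no match, which says only that these letters are not in these windows. Among 27025 promoters of the table, 1 for each gene, the NR5A1 motif occurred in 4.05%, the E-box in 6.05%, the CREB motif in 17.9% and the TATA box in 13.0%. The first SOX form occurred in 16.5% and the second in 2969 promoters, and the first and second GATA forms in 10.3% and 8.16%. The Ctsl, Amhr2 and Inha windows lie inside the annotated span of their own gene, downstream of another annotated start, so they may not be the promoter that these cells use.

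Aard encodes a protein rich in alanine and arginine, on chromosome 15 (gene ID 239435, GRCm38, 52040107 to 52045722). It had 1.92, 1.57 and 3.27 FPKM in SKO libraries 1, 2 and 3, against 0.602, 1.45 and 0.250 FPKM in wild-type libraries 1, 2 and 3. The groups did not overlap, but the margin between SKO library 2 and wild-type library 2 was narrow. Its log2 fold change was 0.90 (SE 0.39, limma adjusted p = 0.448).

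The values of Inha were multiples of a small step, and those of Aard and Cst12 nearly so. The table gives no counts and its absolute depth is unknown. After correction for relative depth, the 6 values of each of these genes stood within 2% of whole-number proportions. That limit is loose at many steps. The Aard value of SKO library 1 and the Cst12 value of SKO library 2 lay between whole steps and are rounded here. Aard stood at 12, 5 and 16 steps in SKO libraries 1, 2 and 3, against 3, 7 and 1 in wild-type libraries 1, 2 and 3. Inha stood at 4, 5 and 11 steps in SKO and at 4, 6 and 3 in wild type, in the same order of libraries. Cst12 stood at 22, 19 and 24 steps in SKO and at 4, 6 and 14 in wild type. The Aard value of wild-type library 3 stood at 1 step. It is not known that 1 step is 1 fragment, and the Aard value of SKO library 1 was not a whole number of steps. Relative depth ran from 0.503 in SKO library 2 to 1 in SKO library 1, with the wild-type libraries between 0.631 and 0.787.

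Across the 6 markers, 3 had no overlap between the groups with SKO above (Clu, Ctsl and Aard), beside 10.9% of all tested rows. All 6 lay above the median log2 fold change of all rows, which was 0.13 as deposited and 0.003 after TMM-type scaling. The median of the 6 was 1.11 as deposited and 0.97 after TMM-type scaling. SKO library 3 held the highest value of 4 of the 6 markers, and wild-type library 1 held the lowest value of 3. None of the 6 genes is X-linked, none overlaps another gene in the RefSeq table, and none shares its 6 values with another row. By mean FPKM, Ctsl and Clu stood at percentiles 82.6 and 81.6 of the tested protein-coding rows, Amhr2 at 63.8, Cst12 at 57.8, Aard at 12.9 and Inha at 2.62. The order of levels by group mean was Ctsl, Clu, Amhr2, Cst12, Aard and Inha in SKO, and in wild type only Aard and Inha were exchanged. Neighbours in that order differed by less than their SD in both groups for Ctsl and Clu and for Amhr2 and Cst12.

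Set against round spermatid markers, the Sertoli markers had a small summed density in both genotypes. The 9 round spermatid markers summed to 995, 2059 and 1439 FPKM in SKO libraries 1, 2 and 3, against 714, 945 and 1330 FPKM in wild-type libraries 1, 2 and 3, so the labelled cell type was present in all 6. Acrv1, an acrosomal protein gene, had 628 ± 236 FPKM in SKO and 403 ± 128 FPKM in wild type, and Crem, a transcription factor of spermatids, had 221 ± 88.5 FPKM in SKO and 226 ± 83.9 FPKM in wild type (SD, n = 3 each). Of the 9 round spermatid genes 0 passed, at a median log2 fold change of 0.51, and 4 had every SKO library above every wild-type library, beside 10.9% of all tested rows. Those 4 were Spaca1, Spaca3, Spaca7 and Tssk1, named after their values were seen, at log2 fold changes of 1.09, 1.25, 1.08 and 0.51. The Sertoli sum came to 6.72%, 3.43% and 6.39% of the round spermatid sum in SKO libraries 1, 2 and 3, against 2.10%, 2.93% and 1.78% in wild-type libraries 1, 2 and 3. These ratios compare sums over chosen genes and are not shares of the footprints or of the cells. They did not overlap between the genotypes, and their nearest pair was SKO library 2 and wild-type library 2.

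Markers of 2 other somatic testis cell types were also higher in the SKO libraries. The 7 Leydig cell markers with values summed to 76.1, 61.2 and 118 FPKM in SKO libraries 1, 2 and 3, against 18.1, 13.6 and 18.7 FPKM in wild-type libraries 1, 2 and 3. The 7 peritubular muscle and matrix markers summed to 57.2, 81.8 and 45.2 FPKM in SKO and to 13.1, 13.6 and 24.2 FPKM in wild type, in the same order. Both sums were apart between the genotypes, 5.06-fold for Leydig and 3.62-fold for peritubular markers, beside 3.46-fold for the Sertoli markers. The library with the highest sum was SKO library 3 for Sertoli and Leydig markers and SKO library 2 for peritubular markers. Of the 7 tested Leydig genes 0 passed, at a median log2 fold change of 1.63, and of the 6 tested peritubular genes 1 rose, at a median of 1.59. Every SKO library was above every wild-type library for 5 of the 7 Leydig and 5 of the 6 peritubular genes. That was so for 3 of the 6 Sertoli markers and for 10.9% of all tested rows. The gene that rose was Dcn, which encodes the matrix protein decorin, at 8.96 ± 1.33 FPKM in SKO and 1.11 ± 0.289 FPKM in wild type (SD, n = 3 each; log2 fold change 2.24, limma adjusted p = 0.0470). It did not pass when any 1 library was left out (limma adjusted p 0.0984 to 0.203), and passed in 5 of 17 alternative settings with 1 choice changed at a time. Among Leydig genes Insl3, a peptide hormone gene, had 36.8 ± 17.4 FPKM in SKO and 5.43 ± 4.13 FPKM in wild type (limma adjusted p = 0.119).

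The sums of immune and endothelial markers and of red blood cell markers were not higher in every SKO library. The 7 macrophage and endothelial markers summed to 6.21, 9.97 and 14.5 FPKM in SKO libraries 1, 2 and 3, against 7.35, 7.17 and 11.1 FPKM in wild-type libraries 1, 2 and 3, with overlap, and Cd68 and C1qb were each listed at 0 in 1 SKO library. Of the 5 tested, 1 had every SKO library above every wild-type library, beside 10.9% of all tested rows. That was Lyz2, named after its values were seen, at 1.68 ± 0.178 FPKM in SKO and 0.780 ± 0.144 FPKM in wild type (SD, n = 3 each; limma adjusted p = 0.546). The 4 globin genes of red blood cells summed to 15.2, 28.0 and 42.0 FPKM in SKO and to 50.4, 110 and 74.2 FPKM in wild type, in the same order. All 4 globin genes had every SKO library below every wild-type library, beside 4.78% of all tested rows, and none passed the test. Hbb-bs, a beta-globin gene, had a log2 fold change of -1.53 (limma adjusted p = 0.294), and Hba-a2 one of -1.33 (limma adjusted p = 0.360). The part of these immune, endothelial and red blood cell markers in the Sertoli marker difference was not tested. Neither was that of the Leydig and peritubular markers.

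**Figure D2:**
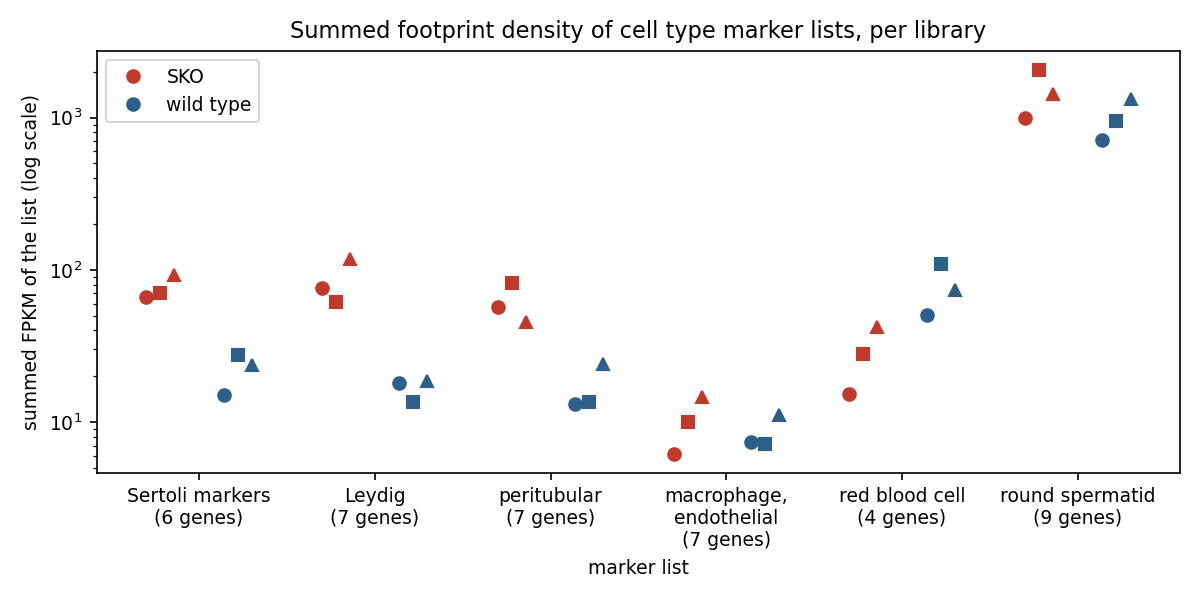
Summed FPKM (log axis) of 6 marker lists in each library, SKO left of wild type, with replicates 1, 2 and 3 as circle, square and triangle. The Sertoli, Leydig and peritubular sums are higher in all 3 SKO libraries, the globin sums are lower in all 3, and the macrophage and endothelial sums overlap.

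A wider list of 28 other Sertoli cell genes had a median near that of all rows, although its summed density was higher in every SKO library. Of these, 15 had values, 9 were tested and 0 passed, with a median log2 fold change of 0.08 beside 0.13 over all rows. Their summed density was 32.9, 36.8 and 61.9 FPKM in SKO libraries 1, 2 and 3, against 23.9, 23.3 and 27.3 FPKM in wild-type libraries 1, 2 and 3. That separation needs Defb19, without which the sums of the groups overlap. Defb19, a beta-defensin gene of Sertoli cells, had 11.2, 11.2 and 19.4 FPKM in SKO and 5.95, 1.64 and 0 FPKM in wild type, in the same order (log2 fold change 2.46, SE 0.63, limma adjusted p = 0.206). Vim, which encodes the intermediate filament vimentin of Sertoli and other somatic cells, had 6.65 ± 2.34 FPKM in SKO and 2.96 ± 1.05 FPKM in wild type (SD, n = 3 each; limma adjusted p = 0.423). Of the 9 tested genes, 4 had every SKO library above every wild-type library (Defb19, Vim, Cst9 and Gja1), beside 10.9% of all tested rows. Another 4 had a negative log2 fold change, -0.75 for Mro, -0.41 for Defb36, -0.33 for Cdh2 and -0.13 for Trf, and Espn was at 0.08. Of these genes all but Defb19 and Vim were named after their values were seen. Dmrt1, a transcription factor gene of Sertoli and germ cells, Rhox8, Tsx, Defb36 and Defb19 were each listed at 0 in at least 1 library.

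Lysosomal genes and cystatins, the groups of Ctsl and Cst12, lay mostly above the median log2 fold change of all rows, at 12 of the 15 tested. Of 17 with values 15 were tested and 0 passed, with a median log2 fold change of 0.75, and 8 of the 15 had every SKO library above every wild-type library, beside 10.9% of all tested rows. Cst8, a cystatin gene known from spermatids and epididymis, had 36.2 ± 16.3 FPKM in SKO and 6.44 ± 6.56 FPKM in wild type (SD, n = 3 each; log2 fold change 2.59, limma adjusted p = 0.175). Lamp1, a lysosomal membrane protein gene, had 29.5 ± 7.47 FPKM in SKO and 23.0 ± 9.36 FPKM in wild type (limma adjusted p = 0.783). Psap, whose product prosaposin is another main secreted protein of Sertoli cells, had 6.89 ± 2.11 FPKM in SKO and 1.47 ± 0.366 FPKM in wild type (limma adjusted p = 0.155), and was named after its values were seen.

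The pathways in which the hormone genes act had medians slightly below that of all rows, which was 0.13. Of the inhibin, activin and AMH signalling list 9 genes were tested and 0 passed, with a median log2 fold change of -0.11. Of these 9, 2 lay above the median of all rows. Smad4, the shared mediator of that family, had 3.38 ± 1.37 FPKM in SKO and 2.77 ± 1.34 FPKM in wild type, and Smad1, which acts downstream of AMH, had 2.06 ± 0.764 FPKM in SKO and 2.73 ± 1.76 FPKM in wild type (SD, n = 3 each; limma adjusted p = 0.890 and 0.926). The FSH signalling list had 8 tested genes and 0 passed, with a median of -0.06, and 2 lay above the median of all rows. In that list 1 gene had every SKO library above every wild-type library, beside 10.9% of all tested rows. Every SKO library was below every wild-type library for 2, beside 4.78%. Prkar1a, a regulatory subunit of protein kinase A, had 97.0 ± 21.5 FPKM in SKO and 110 ± 29.6 FPKM in wild type, and Prkaca, a catalytic subunit, had 40.7 ± 21.3 FPKM in SKO and 37.2 ± 11.9 FPKM in wild type (SD, n = 3 each; limma adjusted p = 0.922 and 0.984). Both genes are used by germ cells as well.

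Genes for the structural work of Sertoli cells gave no call either. Among 14 tested genes of the blood-testis barrier 0 passed, with a median log2 fold change of 0.11. Nectin3, an adhesion gene that spermatids also use to bind Sertoli cells, had 11.9 ± 2.42 FPKM in SKO and 12.7 ± 3.20 FPKM in wild type, and Jam2, a junctional adhesion gene, had 13.7 ± 8.40 FPKM in SKO and 17.3 ± 7.02 FPKM in wild type (SD, n = 3 each; limma adjusted p = 0.964 and 0.811). Among 4 tested phagocytosis genes 0 passed, with a median of 0.21, and Scarb1, a scavenger receptor gene, had 9.02 ± 4.73 FPKM in SKO and 11.6 ± 2.95 FPKM in wild type (limma adjusted p = 0.771). Elmo1, an engulfment gene, had a limma adjusted p of 0.924. Among 4 tested gonadal fate regulators 0 passed, with a median of 0.003. Gata6 and Emx2, both transcription factor genes, had limma adjusted p of 0.821 and 0.867.

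**Figure D3:**
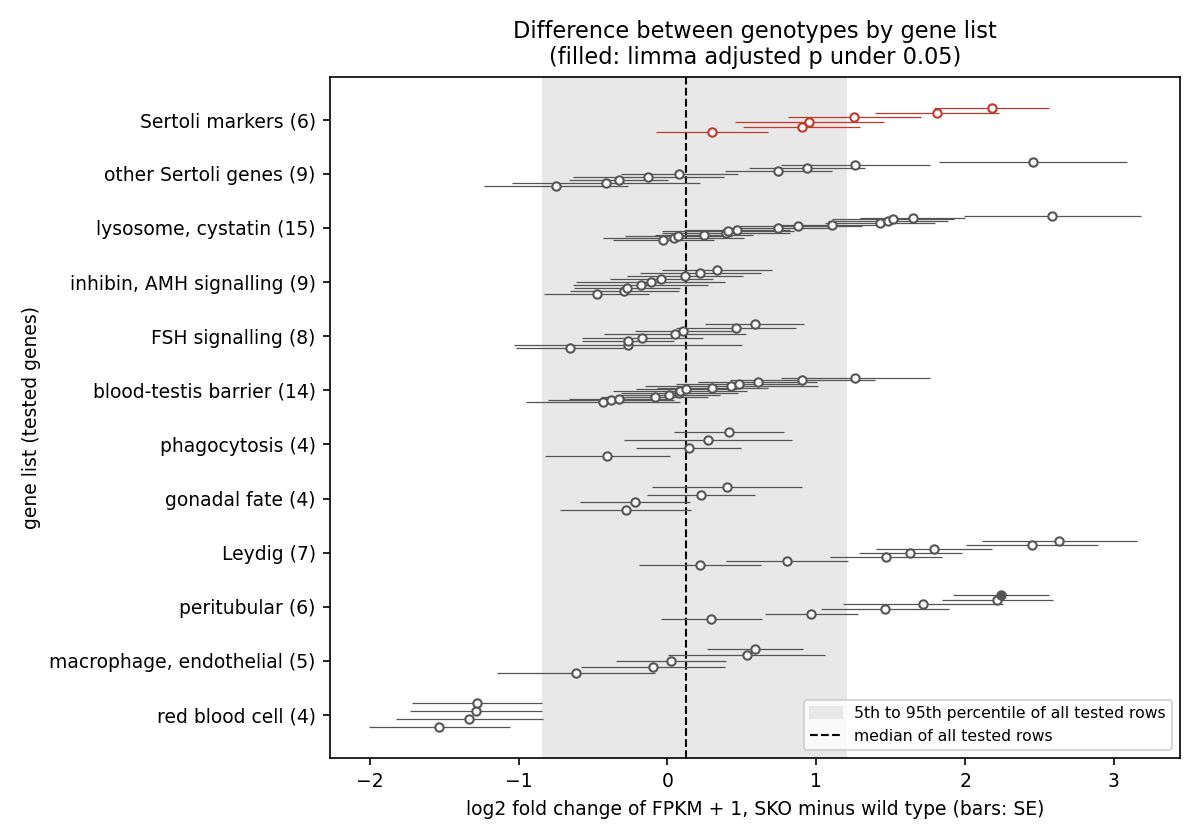
Log2 fold change of FPKM + 1, SKO minus wild type, with SE, for the tested genes of each list. The grey band is the range from the 5th to the 95th percentile of all tested rows (-0.84 to 1.20) and the dashed line their median (0.13). Clu, Ctsl and Cst12 of the Sertoli markers lie beyond the band, and the filled point is Dcn.

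Other rows were ranked by how closely their pattern over the 6 libraries followed the mean of the 6 standardised Sertoli markers. Among 4685 named protein-coding rows whose mean reached 5 FPKM, the 8 most alike were Brd3, Odf3, Pln, Phf6, Crat, H3c1, Akap8l and Zfp346, with Pearson correlations of 0.970 to 0.992 over 6 libraries. The markers themselves had correlations with that mean of 0.977 for Ctsl, 0.942 for Clu, 0.927 for Aard, 0.737 for Cst12, 0.725 for Inha and 0.672 for Amhr2, each being part of it. Pln, which encodes the calcium pump regulator phospholamban of muscle cells, had 22.1, 28.5 and 35.6 FPKM in SKO libraries 1, 2 and 3, against 5.27, 11.7 and 5.66 FPKM in wild-type libraries 1, 2 and 3. Odf3, an outer dense fibre gene of the sperm tail, had 9.76, 9.74 and 12.9 FPKM in SKO libraries 1, 2 and 3, against 4.66, 6.69 and 5.88 FPKM in wild-type libraries 1, 2 and 3. None of the 8 passed the test (limma adjusted p 0.0775 to 0.488). The correlations share the same 6 libraries and the genotype difference, and are a description.

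The calls of the markers depended on the setting, while the direction reversed once, for Inha at -0.02 with TMM-type scaling and without SKO library 3. With 1 choice changed at a time, Clu kept a positive log2 fold change in all 17 settings, between 1.64 and 2.37, and passed in 5 of them. Ctsl lay between 1.41 and 2.04 and passed in 3 of 17. Cst12, at 0.70 to 1.71, and Amhr2, at 0.52 to 1.36, passed in 0 of 17, and Aard, at 0.33 to 1.63, and Inha, at 0.09 to 0.56, passed in 0 of the 16 settings in which they were tested. Calls in other lists depended on the setting too. With a mean of at least 5 FPKM and with robust eBayes, 2 Leydig genes passed. TMM-type scaling, quantile normalization, equal protein-coding sums and robust eBayes each gave 2 peritubular genes. Of the round spermatid genes, 2 passed with quantile normalization and 3 with equal protein-coding sums.

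**Figure D4:**
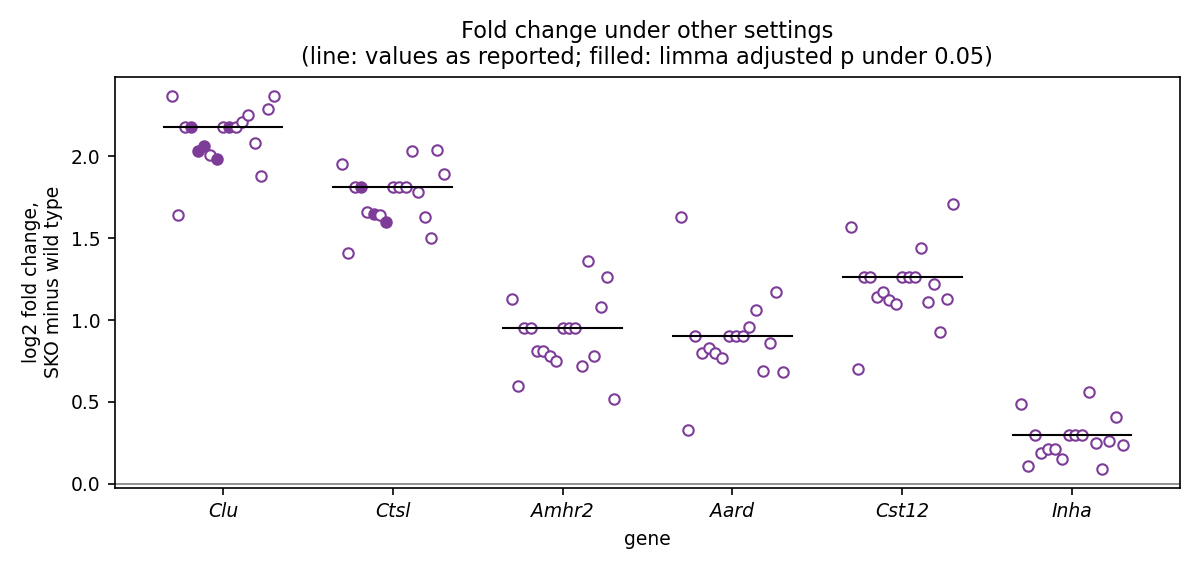
Log2 fold change, SKO minus wild type, of each Sertoli marker under the alternative settings (points) and with the values as reported (line), with filled points where the limma adjusted p was under 0.05. All points lie above 0, and the filled points belong to Clu (5) and Ctsl (3).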

How the data were processed

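Ribosome-protected fragments of 3 SKO and 3 wild-type samples were deposited by the authors as a single FPKM value for each symbol in each library, without counts. The build mm10 and the tools Cufflinks, STAR, Bowtie2 and cutadapt are named per the submitters' processing notes. The sources used here do not give their roles, the annotation or how ribosomal and multi-mapping reads were handled. FPKM values are relative, so a few dense rows move all others. Protein-coding rows held 18.3% to 33.1% of the summed FPKM, and Spearman correlations over protein-coding rows were 0.812 to 0.849 within groups and 0.774 to 0.809 between them.

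Columns were matched to samples by genotype name and replicate number. Symbols were matched to a RefSeq table of GRCm38.p6 (19305 rows by symbol, 81 by synonym, 3384 unmatched). Rows whose mean reached 1 FPKM were tested on log2(FPKM + 1) in limma 3.58.1 (R 4.3.3; lmFit and trended eBayes; two-sided p adjusted by Benjamini-Hochberg over 15578 rows; threshold 0.05), a procedure tested on simulated data. Adding 1 understates the change of low genes. Relative depth was the commonest ratio of values to SKO library 1 over rows under 1 FPKM in every library. The TMM-type factors ran from 0.812 to 1.31.

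The markers and lists were chosen with earlier results of these data known. All markers with values were named, and in each other list the 2 called genes with the smallest p, or the 2 densest where none was called. In the spermatogonial, spermatocyte and elongating spermatid lists the genes so chosen were not all printed. The spermatogonial, spermatocyte and elongating spermatid lists had 5, 8 and 9 tested genes, 0 called, and median log2 fold changes of 0.15, 0.29 and 0.16. Lists were described by counts and medians, with no set test. Alternatives were other pseudocounts, filters, scalings, eBayes options, a replicate block and leaving out each library.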

Additional observations from a re-analysis of the deposited data

How the results depend on the processing

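With the deposited values 0 of the 6 Sertoli markers passed (limma). Of these, 2 passed with a mean of at least 5 FPKM, with quantile normalization and with equal sums over protein-coding rows (Clu and Ctsl), and 1 passed with TMM-type scaling and with robust eBayes (Clu). The count was 0 with pseudocounts of 0.1 and 5, no filter, equal sums over all rows, eBayes without a trend, and when any 1 library was left out. The log2 ratio of the summed markers was 1.82, lay between 1.59 and 1.66 under the 4 scalings, and between 1.57 and 2.01 with 1 library left out. All 6 markers stayed above the all-row median except without SKO replicate 3 (5 of 6), and all 4 that passed the stricter filter did so. Over all rows, 20 passed with the deposited values, 4 with a pseudocount of 5, 5 with no filter, 86 with a mean of at least 5 FPKM, 159 with TMM-type scaling, 449 with quantile normalization, 517 with equal protein-coding sums, 63 with robust eBayes, and 4 (without wild-type replicate 3) to 27 (without SKO replicate 2) with 1 library left out. The cause of these differences was not tested. The replicate number as a block gave 0 markers called and 5 rows in all. Deviations of same-numbered libraries from their group means had correlations of 0.000158 to 0.0926. Those of the other pairs of an SKO and a wild-type library ran from -0.107 to 0.0799. The ranges overlap, and the numbers were not taken as pairs. Centring on the group means ties these correlations together, so they say little about pairing. Chosen after seeing the data, TMM-type scaling with a library left out or with the replicate block gave 0 markers called. Of the 6 markers only Inha changed sign, at a log2 fold change of -0.02 without SKO replicate 3 under TMM-type scaling. Other named genes also changed sign in some settings, and none of these values passed the test. With 1 library left out, log2 fold changes ran from -0.34 to 0.24 for Crem, -0.33 to 0.41 for Prkaca, -0.85 to 0.07 for Jam2, -0.65 to 0.13 for Smad1, -0.23 to 0.09 for Nectin3, -0.31 to 0.04 for Prkar1a, -0.01 to 0.51 for Smad4, -0.04 to 0.36 for Elmo1 and -0.01 to 0.99 for Cd74. Prkaca was at -0.11 under TMM-type scaling (also with the replicate block), -0.21 with quantile normalization, -0.14 with equal sums and -0.18 with equal protein-coding sums, and Elmo1 was at -0.01 and -0.02 with equal sums over all and over protein-coding rows. Under TMM-type scaling with a library left out, Prkaca was at -0.37 without SKO replicate 2, -0.09 without SKO replicate 3, and -0.28, -0.04 and -0.05 without wild-type replicates 1, 2 and 3. Elmo1 was then at -0.28 without SKO replicate 1 and at -0.01 and -0.17 without wild-type replicates 2 and 3, and Gata6 at -0.02 and -0.03 without wild-type replicates 1 and 3. Smad4 was at -0.13 without SKO replicate 1 and -0.04 without wild-type replicate 1, Cd74 at -0.15 without SKO replicate 3, Ccna1 at -0.03 without wild-type replicate 1 and Uchl1 at -0.01 without SKO replicate 1.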
